A study of Homo sapiens with 6 samples.

Results

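The 10 genes described here encode Eph receptors and their membrane-bound ligands, the ephrins. They were taken by gene symbol (EPHA2, EPHA4, EPHB2, EPHB3, EPHB4, EFNA1, EFNA4, EFNA5, EFNB1 and EFNB2) from a table of 17039 genes, in which all 10 were found. Poly(A) RNA had been sequenced from 3 libraries of 231-BR cells and 3 libraries of MDA-MB-231 cells. MDA-MB-231 is an established human breast cancer line of the triple-negative type, and 231-BR is a variant of it that seeks the brain. Both lines were grown in culture without further treatment, and G418, a selection antibiotic, was added to the medium of 231-BR cells only. The lines came from different sources, so selection for the brain, G418 and separate culture cannot be told apart in the comparison. The cell line field of the labels counts upward from replicate to replicate (232-BR, MDA-MB-232), and the libraries were therefore grouped by their titles.

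Eph receptors are the largest family of receptor tyrosine kinases. EphA receptors mostly bind ephrin-A ligands, which are held in the membrane by a lipid anchor, and EphB receptors mostly bind ephrin-B ligands, which span the membrane and can signal back into the cell that carries them. EPHA4 also binds ephrin-B ligands, and EPHB4 is a receptor with a strong preference for EFNB2. Contact between a receptor on one cell and an ephrin on another often ends in repulsion, through the actin cytoskeleton, and the family is best known for guiding axons and for setting boundaries between tissues. EPHA2 is widely expressed in breast cancer cells, where it can also act without its ligand.

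Expression was given by the authors as FPKM, a fragment count scaled by transcript length and by the number of mapped fragments, which is per length and allows levels of different genes to be compared. Per library, the summed FPKM ran from 465020 to 472007 for 231-BR and from 486937 to 496420 for MDA-MB-231. Read depth is not given and was not recovered from the values, which carry 2 decimals. Across the 11124 genes with a mean of at least 1 FPKM, the lowest correlation of log2 values within a line was 0.997 and the highest between the lines was 0.902. VIM, CD44, KRT8 and KRT18, which mark these carcinoma cells, summed to 3161 to 3204 FPKM in 231-BR cells and 3088 to 3183 FPKM in MDA-MB-231 cells. Most of this sum is VIM, which was higher in 231-BR cells (0.15 on the log2 scale), while CD44, KRT8 and KRT18 were lower (-0.47, -0.43 and -0.37). The 5 luminal and epithelial markers summed to 19.3 to 19.85 FPKM in 231-BR cells and to 10.29 to 11.15 FPKM in the other line, mostly ERBB2 and EPCAM, both called higher, with CDH1 at or under 0.03 FPKM throughout. Of 11 markers of endothelial, blood and neural cells in the table, 8 stayed under 0.2 FPKM in every library, among them PTPRC, CDH5 and GFAP. The exceptions were PECAM1 (at most 0.48 FPKM), the lysosomal gene CD68 and SYT1, a synaptic vesicle gene that had 6.35 ± 0.481 FPKM in 231-BR cells against 0.380 ± 0.052 in MDA-MB-231 cells. The 4 neural markers in the table summed to 6.13 to 6.99 FPKM in the former line and to 0.34 to 0.44 FPKM in the latter, nearly all of it SYT1, and the part of these markers in the changes of Eph genes was not tested. In bulk RNA, fewer expressing cells and less RNA per cell cannot be told apart. Values with an error are means ± SD over 3 libraries.

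The 22 Eph and ephrin genes of the table summed to nearly the same level in both lines, whereas the make-up of that sum differed. The sum was 162 ± 1.53 FPKM in 231-BR cells against 162 ± 3.10 in MDA-MB-231 cells. The 10 genes described here held 95.9% of it in 231-BR cells against 98.9% in MDA-MB-231 cells. EPHA2 alone made up 62.6% ± 0.201 in 231-BR cells against 68.0% ± 0.121 in MDA-MB-231 cells. The 3 ephrin-B ligands rose in share, from 8.78% ± 0.340 in MDA-MB-231 cells to 15.1% ± 0.166 in 231-BR cells, or from 14.2 ± 0.325 to 24.5 ± 0.465 FPKM. The EphB receptors made up 14.0% ± 0.405 in MDA-MB-231 cells and 11.1% ± 0.361 in 231-BR cells. The ephrin-A ligands made up 8.45% ± 0.182 and 7.56% ± 0.220. The EphA receptors other than EPHA2 together had 1.26 ± 0.080 FPKM in MDA-MB-231 cells and 5.87 ± 0.433 FPKM in 231-BR cells. These sums are a description and carry no test. They were not scaled to the summed FPKM of all genes, which was lower in every 231-BR library.

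**Figure D1:**
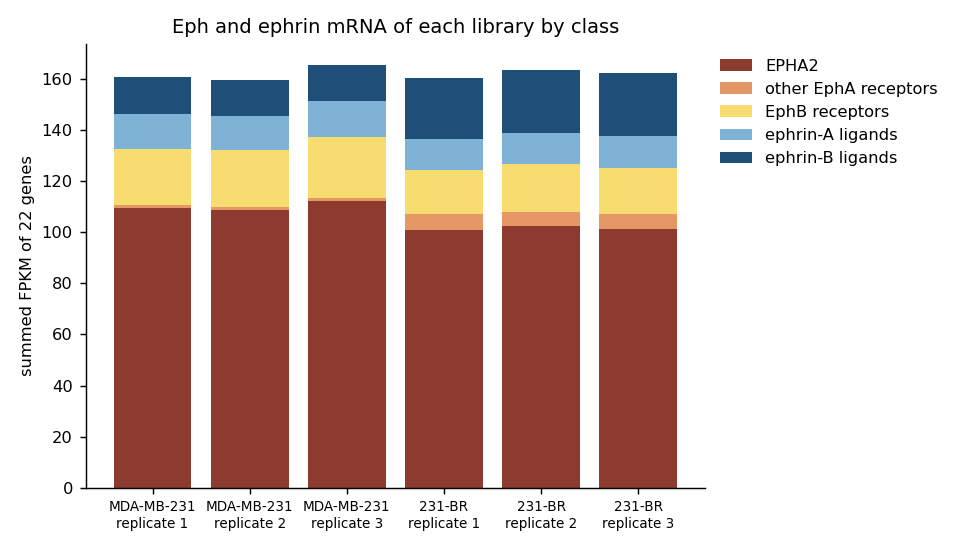
Summed FPKM of the 22 Eph and ephrin genes in each of the 6 libraries (bars from 0), divided into EPHA2, the other EphA receptors, the EphB receptors, the ephrin-A ligands and the ephrin-B ligands. The height of the bars is nearly equal, while the ephrin-B part is 14.2 FPKM on average in MDA-MB-231 cells and 24.5 FPKM in 231-BR cells.

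For the comparison of the lines, log2(FPKM + 0.1) was tested with limma over the 13470 genes with a mean of at least 0.1 FPKM, and each log2 fold change is 231-BR relative to MDA-MB-231 on that scale, which understates the change of low genes. Of the 10 genes, 9 passed this filter, and EPHB3 did not. At an adjusted p under 0.05, 3 of them were higher in 231-BR cells (EFNB1, EPHA4 and EFNA4) and 6 were lower (EFNA1, EFNA5, EPHB4, EFNB2, EPHB2 and EPHA2). Over all genes tested, 44.4% were called higher and 32.9% lower, so that a call by itself is common in this comparison and the sizes matter more. Of all genes called, 57.4% were higher, a share that fell to 45.65% after quantile normalization. On the log2 scale the 9 genes had a median change of -0.29, against 0.08 for all genes tested. The median absolute log2 fold change was 0.46 for the 9 genes and 0.38 for all genes tested. None of the 9 genes had overlapping libraries between the lines, where over all genes tested the 231-BR libraries lay wholly above in 44.9% and wholly below in 33.5%. The samples are described as independent, but not as separate cultures, and the p-values then measure the spread between these libraries only. An exact two-sided permutation test of a single gene with 3 libraries against 3 cannot give a p below 0.1.

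The ephrin-B ligands moved in opposite directions. EFNB1, which lies on chromosome X (gene identifier 1947, GRCh38, chrX:68828997-68842147, plus strand), had 15.1, 15.4 and 15.7 FPKM across 231-BR libraries against 2.69, 2.32 and 2.62 across those of MDA-MB-231. Every 231-BR library was thus above every MDA-MB-231 library, by a 6.06-fold difference of the means. The log2 fold change was 2.56 (standard error 0.061, 95% interval 2.42 to 2.69, adjusted p = 2.4e-10 from limma). EFNB2, on chromosome 13 (gene identifier 1948, chr13:106489731-106535662, minus strand), had 8.82, 9.24 and 8.98 FPKM in 231-BR cells against 11.8, 11.9 and 11.2 in MDA-MB-231 cells. Its libraries did not overlap either, and the log2 fold change was -0.36 (standard error 0.042, adjusted p = 1.9e-05). The order of the pair was thus turned. The ratio of EFNB1 to EFNB2 within a library was 1.71, 1.67 and 1.75 in 231-BR cells against 0.228, 0.196 and 0.233 in MDA-MB-231 cells. Exons of EFNB2 overlap those of AL138689.2, an antisense gene not analysed here. The remaining ligand of the class, EFNB3, stayed at or under 0.04 FPKM in every library and was not tested.

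The sequence in front of the RefSeq transcript starts is given for this pair, which parted, and for EPHA4, the receptor that rose with EFNB1. Each runs 5′ to 3′ on the strand of the gene (RefSeq promoter table, GRCh38.p14) within the 250 bases before the start, without bases that GENCODE release 29 places in an exon of the gene. Capitals mark matches on either strand to 3 promoter motifs. The GC box was searched as the letters GGGCGG. The CCAAT box was searched as spelled in its name. The TATA box was searched as the letters TATAAA, and no match overlaps another here.
EFNB1, chrX:68828771-68828996, plus strand: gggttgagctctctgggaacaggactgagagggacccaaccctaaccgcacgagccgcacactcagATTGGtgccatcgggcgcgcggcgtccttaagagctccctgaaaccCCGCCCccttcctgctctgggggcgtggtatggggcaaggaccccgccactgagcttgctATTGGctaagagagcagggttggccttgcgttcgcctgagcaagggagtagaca
EFNB2, chr13:106535663-106535912, minus strand: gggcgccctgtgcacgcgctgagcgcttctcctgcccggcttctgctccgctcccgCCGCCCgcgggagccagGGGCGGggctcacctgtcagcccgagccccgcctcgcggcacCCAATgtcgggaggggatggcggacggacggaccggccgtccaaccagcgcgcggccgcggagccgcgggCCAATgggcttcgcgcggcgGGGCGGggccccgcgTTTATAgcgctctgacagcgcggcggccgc
EPHA4, upstream start, chr2:221574203-221574452, minus strand: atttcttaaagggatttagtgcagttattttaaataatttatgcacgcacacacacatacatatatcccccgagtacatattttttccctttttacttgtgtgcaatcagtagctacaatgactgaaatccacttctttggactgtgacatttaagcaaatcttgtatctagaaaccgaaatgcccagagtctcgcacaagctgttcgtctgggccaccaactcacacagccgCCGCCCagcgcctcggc
EPHA4, downstream start, chr2:221572359-221572554, minus strand: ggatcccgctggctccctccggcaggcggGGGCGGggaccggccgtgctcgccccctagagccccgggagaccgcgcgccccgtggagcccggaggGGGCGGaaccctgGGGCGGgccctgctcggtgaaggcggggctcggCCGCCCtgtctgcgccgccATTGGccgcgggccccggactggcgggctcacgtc
In the full windows of 250 bases, EFNB1 had 1 GC box, 2 CCAAT boxes and 15 CpG, and EFNB2 had 3 GC boxes, 2 CCAAT boxes, 1 TATA box and 40 CpG. The upstream start of EPHA4 had 1 GC box and 9 CpG, and its downstream start, which lies inside the gene, had 5 GC boxes, 4 of them in the stretch shown, 1 CCAAT box and 30 CpG. Over 34788 windows of this length in the table, 42.6% held a GC box, 32.0% a CCAAT box and 10.8% a TATA box, and the median was 11 CpG. The AP-1 site TGACTCA, which 4.21% of the windows held on either strand, was not found in the windows of the 10 genes. The matches are descriptions of letters, not binding sites.

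Among the EphA receptors, EPHA2 had by far the highest level of the 10 genes and hardly moved, and EPHA4 rose from a very low level. EPHA2 (gene identifier 1969, chr1:16124337-16156087, minus strand) had 101, 102 and 101 FPKM across 231-BR libraries against 109, 109 and 112 across those of MDA-MB-231, more than 95.6% and 95.95% of the genes of the table, respectively. The 231-BR libraries lay below the others without overlap. The log2 fold change was -0.12 (standard error 0.023, adjusted p = 0.00081), a ratio of the means of 0.921. EPHA4, a receptor studied mostly in neurons (gene identifier 2043, chr2:221418027-221574202, minus strand), had 1.91, 1.63 and 1.58 FPKM in 231-BR cells against 0.27, 0.19 and 0.31 in MDA-MB-231 cells. This is a 6.65-fold difference of the means, the widest of the 10 genes by this measure. Its exons overlap those of an antisense gene, AC079834.2, and no strand-specific counting is stated. The log2 fold change was 2.35 (standard error 0.151, 95% interval 2.01 to 2.69, adjusted p = 2.4e-07). It depended on the pseudocount, with 1.11 at a pseudocount of 1 and 2.71 at 0.01. Even after this rise EPHA2 had 52.7 to 64.1 times the FPKM of EPHA4 in the 231-BR libraries, against 362 to 572 times in the MDA-MB-231 libraries. EFNB1 and EPHA4 are among the genes that the study had picked on these libraries for their rise within an axon guidance gene set, so their direction here is not independent evidence.

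EPHB2 and EPHB4 were lower in 231-BR cells. EPHB2 (gene identifier 2048, chr1:22710839-22921500, plus strand) had 10.1, 11.3 and 10.5 FPKM in 231-BR cells against 12.8, 12.8 and 13.5 in MDA-MB-231 cells. The groups did not overlap, and the log2 fold change was -0.29 (standard error 0.050, adjusted p = 0.00037). EPHB4, the partner of EFNB2 in vessel formation (gene identifier 2050, chr7:100802565-100827521, minus strand), had 6.78, 6.90 and 7.06 FPKM in 231-BR cells against 9.0, 9.46 and 10.3 in MDA-MB-231 cells. Its log2 fold change was -0.46 (standard error 0.055, adjusted p = 2.4e-05). Exons of EPHB4 overlap exons of SLC12A9 on the opposite strand. SLC12A9 itself had 4.61 ± 0.145 FPKM in 231-BR cells against 4.78 ± 0.476 in MDA-MB-231 cells, with libraries that overlapped. With both EPHB4 and EFNB2 lower, the ratio of receptor to ligand hardly moved, with 0.769, 0.747 and 0.786 in 231-BR libraries against 0.762, 0.797 and 0.915 in those of MDA-MB-231, and these ranges overlap. EPHB3 (gene identifier 2049, chr3:184561784-184582409, plus strand) was very low, with 0.06, 0.06 and 0.07 FPKM in 231-BR cells against 0.16, 0.14 and 0.10 in MDA-MB-231 cells. The groups did not overlap, but the mean over the 6 libraries was 0.098 FPKM, just under the filter. Without the filter its log2 fold change was -0.51 (standard error 0.123, adjusted p = 0.0090).

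The ephrin-A ligands split as well. EFNA1, the ligand usually paired with EPHA2 (gene identifier 1942, chr1:155127460-155134857, plus strand), had 0.60, 0.84 and 0.68 FPKM in 231-BR cells against 1.79, 1.69 and 1.73 in MDA-MB-231 cells. The groups were far apart, and the log2 fold change of -1.20 was the largest decrease of the 9 genes tested (standard error 0.121, 95% interval -1.47 to -0.93, adjusted p = 7.3e-06). At a pseudocount of 1 it was -0.68. EFNA5 (gene identifier 1946, chr5:107376889-107670895, minus strand), a ligand with a long record in the mapping of visual axons, had 4.67, 4.36 and 4.44 FPKM in 231-BR cells against 7.04, 6.59 and 7.41 in MDA-MB-231 cells. Its log2 fold change was -0.63 (standard error 0.059, adjusted p = 4.1e-06), again without overlap of the libraries. EFNA4 (gene identifier 1945, chr1:155063731-155069553, plus strand) had 5.10, 4.70 and 5.18 FPKM in 231-BR cells against 4.15, 3.97 and 4.41 in MDA-MB-231 cells. The 231-BR libraries lay above the others by a small margin, with a difference of 0.25 on the log2 scale (standard error 0.064, adjusted p = 0.0046). This call was lost after quantile normalization, which gave 0.03 with an adjusted p of 0.71. Over all 14 alternatives the adjusted p of EFNA4 ran from 0.0033 to 0.71.

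EFNA4, EFNA3 and EFNA1 lie side by side on the plus strand of chromosome 1, in this order, within 71127 bases, with 9318 bases between the first pair of genes and 39921 bases between the second. EFNA3, which is not one of the 10 genes, had 1.71, 2.11 and 2.34 FPKM in 231-BR cells against 0.73, 0.87 and 0.63 in MDA-MB-231 cells, or 1.35 on the log2 scale (standard error 0.141, adjusted p = 9.4e-06). Within this stretch the gene at one end was thus 0.25 higher, the gene in the middle 1.35 higher and the gene at the other end 1.20 lower in 231-BR cells on the log2 scale. The ratio of EFNA4 to EFNA1 was 5.60 to 8.50 in 231-BR libraries against 2.32 to 2.55 in those of MDA-MB-231. A protein-coding gene of the same strand, AL691442.1, shares exons with both EFNA4 and EFNA3 in GENCODE release 29, so reads of this pair could have been divided between models.

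**Figure D2:**
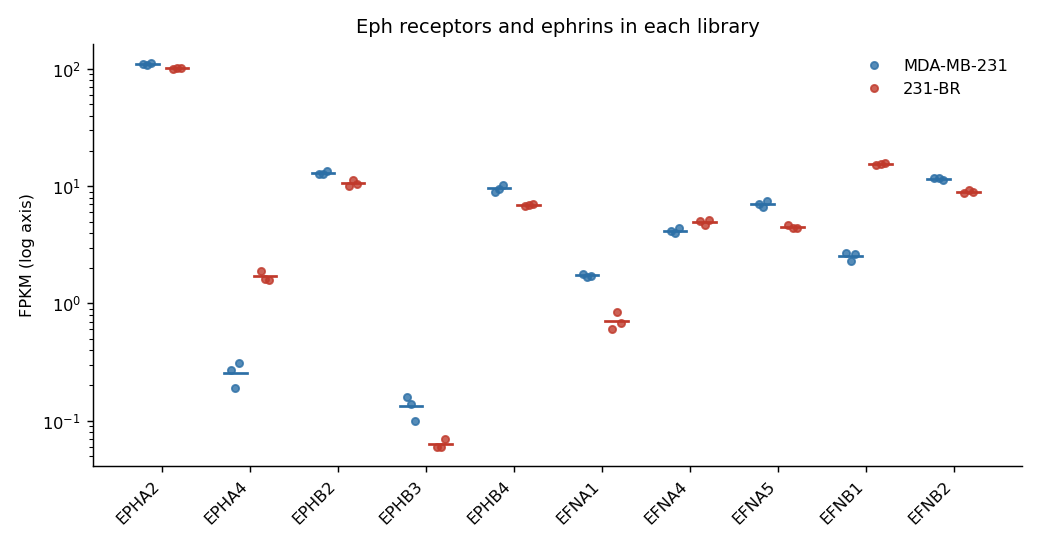
FPKM of the 10 genes in each library on a log axis, with MDA-MB-231 cells in blue and 231-BR cells in red (points are libraries, lines are means of 3). EFNB1 and EPHA4 sit higher in every 231-BR library, at 15.4 and 1.71 FPKM on average, while EPHA2 is near 100 FPKM in both lines, at 101 and 110 FPKM.

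Ordered by mean FPKM, EPHA2 came first and EPHB3 last in both lines, and in neither line did the libraries of any gene overlap those of the next in the order. In MDA-MB-231 cells the order after EPHA2 was EPHB2, EFNB2, EPHB4, EFNA5, EFNA4, EFNB1, EFNA1 and EPHA4, from 13.0 FPKM down to 0.257 FPKM. In 231-BR cells it was EFNB1, EPHB2, EFNB2, EPHB4, EFNA4, EFNA5, EPHA4 and EFNA1, from 15.4 FPKM down to 0.707 FPKM. EFNB1 had moved from rank 7 to rank 2. EFNA4 and EFNA5 had changed places, as had EPHA4 and EFNA1, and the other genes kept their relative order. EFNB1 was above 44.2% of the genes of the table in MDA-MB-231 cells and above 71.3% in 231-BR cells.

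The study called a DEG by an FPKM of at least 1, an adjusted p under 0.05 and an absolute log2 fold change over 1, with the level asked here of the mean of both lines. EFNB1 was the only one of the 10 genes to meet all 3 criteria. Over all genes tested, 4.68% met them with a higher and 1.77% with a lower value in 231-BR cells. EPHA4 and EFNA1 had the fold change but not the level, with 0.257 FPKM in MDA-MB-231 cells for the former and 0.707 FPKM in 231-BR cells for the latter. When a mean of 1 FPKM in either line was enough, 3 of the 10 genes met the criteria. The shares of all genes given above are for the level in both lines, and none was computed for this looser rule. At any level, 3 of the 9 tested genes had an absolute log2 fold change over 1, against 2060 of the 13470 genes tested in all.

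The family holds 12 further genes in the table, and 7 of these could be tested. Of the 7, 6 were higher in 231-BR cells (EPHA3, EPHA5, EPHA6, EPHA7, EPHB1 and EFNA3) and 0 were lower, at an adjusted p under 0.05 from limma. EPHA3, EPHB1 and EPHA10 had a mean under 0.1 FPKM in MDA-MB-231 cells. They passed the filter only through 231-BR cells, where their means were higher. The median log2 fold change of the 7 was 1.35, against 0.08 for all genes tested, of which 44.4% were called higher and 32.9% lower. With a filter at a mean FPKM of 1, only 1 of these genes was called higher, since fewer of them were tested. For 7 of the 12 genes the study had picked the gene on these libraries because it rose, so this direction is not independent evidence. EPHA5 had the largest log2 fold change of FPKM + 0.1, with 1.78 ± 0.178 FPKM in 231-BR cells against 0.107 ± 0.040 in MDA-MB-231 cells, or 3.20 on the log2 scale (standard error 0.164, adjusted p = 4.7e-08). EPHA6 had 1.20 ± 0.099 FPKM against 0.637 ± 0.023, and EPHA7 had 0.393 ± 0.090 FPKM against 0.117 ± 0.045. EPHA3 and EPHB1 were nearly at 0 in MDA-MB-231 cells, with 0.01 to 0.05 FPKM and 0.00 to 0.01 FPKM, and had 0.48 to 0.64 FPKM and 0.39 to 0.50 FPKM in 231-BR cells. Exons of EPHB1 overlap those of KY, and exons of EPHA5 those of EPHA5-AS1, both on the opposite strand. At a pseudocount of 1 the log2 fold changes of EPHA5, EPHA3, EPHB1 and EPHA7 were 1.33, 0.59, 0.51 and 0.32, and at 0.01 they were 3.99, 4.26, 4.78 and 1.71, so the order of these genes depends on the pseudocount.

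EPHA10 had 0.143 ± 0.021 FPKM in 231-BR cells against 0.093 ± 0.032 in MDA-MB-231 cells, with libraries that overlapped and an adjusted p of 0.15. EPHA1, EPHA8, EPHB6, EFNA2 and EFNB3 did not pass the filter. EPHA1 had 0.09 to 0.11 FPKM in 231-BR cells and 0.02 to 0.04 FPKM in the other line, and its exons overlap those of ZYX on the opposite strand. Without the filter its log2 fold change was 0.64 (standard error 0.107, adjusted p = 0.0015). EPHA8 and EPHB6 had a listed value of 0 throughout the MDA-MB-231 libraries and reached at most 0.01 FPKM in 231-BR cells. The receptors that rose did so from low levels, as EPHA4 did, whereas the receptors at 5 FPKM or more in both lines (EPHA2, EPHB2 and EPHB4) were lower in 231-BR cells. Low receptors did not all rise, as EPHA10 was not called and EPHB3 was lower in every 231-BR library. The study had picked the receptors that rose on these libraries for their rise. The line at 5 FPKM was drawn after the values were seen, so the contrast is a description and carries no test.

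**Figure D3:**
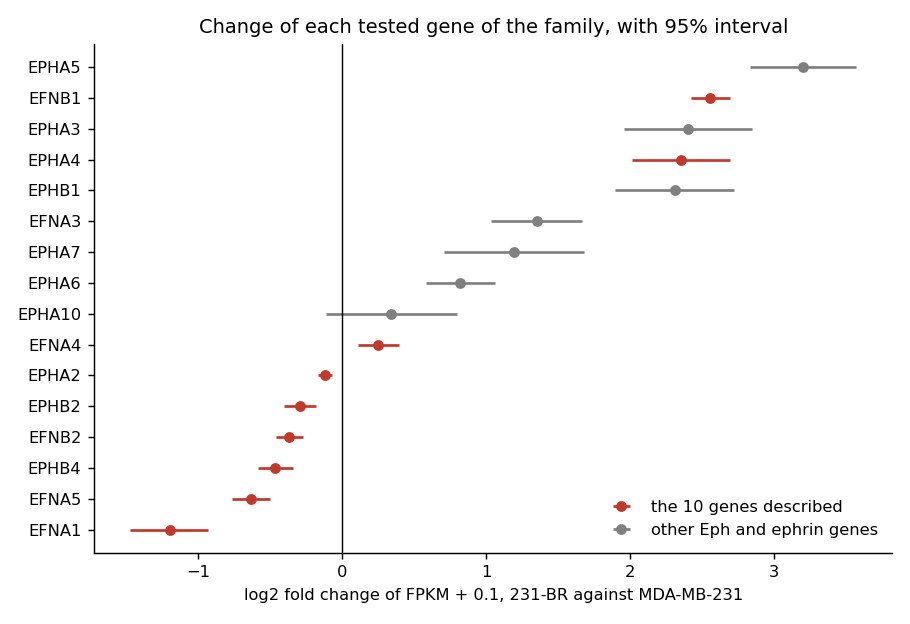
Log2 fold change of FPKM + 0.1 of the 16 tested Eph and ephrin genes, 231-BR against MDA-MB-231 cells, with its 95% interval from limma, for 9 of the 10 genes described (red) and 7 others (grey). EPHA5 (3.20), EFNB1 (2.56), EPHA3 (2.40), EPHA4 (2.35) and EPHB1 (2.31) are at the upper end, and EFNA1 (-1.20) is at the lower end.

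To see whether a gene stood apart from its chromosomal surroundings, it was set beside the 40 nearest genes with a mean of at least 1 FPKM, 20 on either side. The neighbours of EFNB1 on chromosome X were raised themselves, with a median log2 fold change of 0.88 (middle 50% from 0.62 to 1.11) and 35 of 40 above 0, and 37 of the 40 changed less than EFNB1. The neighbours of EFNB2 on chromosome 13 were lowered, with a median of -0.54, which is below the -0.36 of EFNB2 itself. Its fall thus lay within that of its surroundings, and 30 of its 40 neighbours were lower than it. EPHA4 was above all 40 of its neighbours, whose median was 0.19, and EFNA1 was below all 40 of its own, whose median was -0.15. EFNA4 was above 37 of its 40 neighbours, also with a median of -0.15. EPHB2 and EPHA2, both on the short arm of chromosome 1, were lower than 37 and 36 of their neighbours, with medians of 0.37 and 0.22. The medians around EPHB4 and EFNA5 were -0.19 and 0.0034. The part of the neighbourhood in the change of any gene was not tested.

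**Figure D4:**
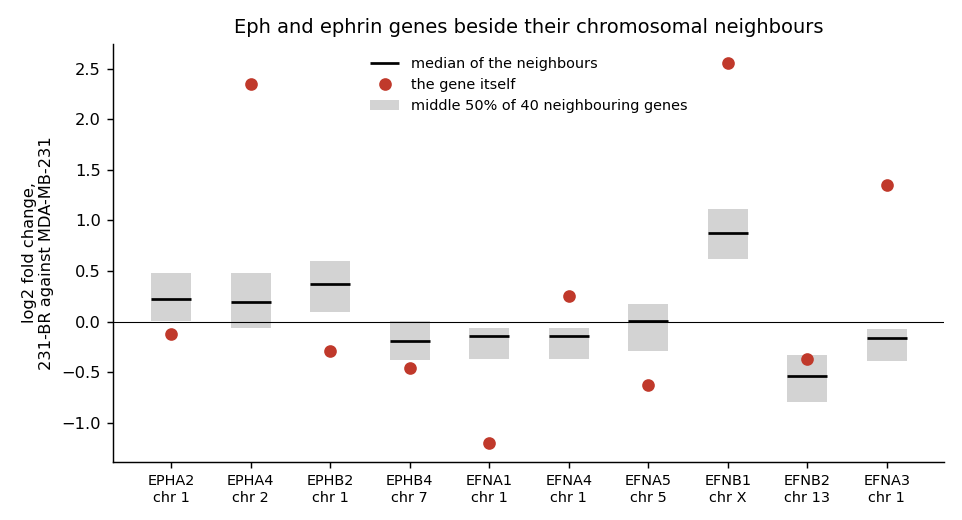
Log2 fold change of the 9 tested genes and of EFNA3 (red points) beside the middle 50% (grey bars) and the median (black lines) of 40 neighbouring genes on the same chromosome. EPHA4 (2.35) and EFNA1 (-1.20) lie outside the range of their 40 neighbours, EFNB2 (-0.36) lies above its neighbours' median of -0.54, and EFNB1 (2.56) lies above a raised median of 0.88.

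Genes that act with Eph receptors and ephrins were taken from a list of 52 symbols, of which 51 were in the table and 49 could be tested. They moved in both directions, with 19 higher, 22 lower and 8 not past the test, and a median log2 fold change of -0.05. Over all genes tested the shares were the 44.4% and 32.9% given above. Of the 11 tested GTPase regulators 4 were higher and 6 lower, of the 12 adaptors 6 were higher and 5 lower, and of the 11 kinases 3 were higher and 4 lower. Of the 5 tested phosphatases 3 were higher and 1 lower, and of the 7 proteases 2 were higher and 4 lower.

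In the list, 4 genes had an absolute log2 fold change over 1 and reached 1 FPKM in at least one line. At any level, 6 of the 49 tested genes of the list had such a fold change, against 2060 of the 13470 genes tested in all. Changes of this size are thus not particular to the list. At a pseudocount of 1, LIMK1 (-1.55) stayed past this fold change, while CHN1 (-0.91), PTPN13 (0.92) and NGEF (0.67) did not. After quantile normalization PTPN13 (0.93) and NGEF (0.78) fell short of it, while LIMK1 (-1.81) and CHN1 (-1.26) did not. With 231-BR replicate 3 left out, CHN1 (-0.98) fell short of it as well. LIMK1, a kinase that acts on cofilin, had 6.28 ± 0.20 FPKM in 231-BR cells against 20.4 ± 1.49 in MDA-MB-231 cells, or -1.68 on the log2 scale (standard error 0.055, adjusted p = 1.9e-09). CHN1, which encodes a Rac-inactivating protein that acts below EPHA4, fell from 7.94 ± 0.340 to 3.78 ± 0.347 FPKM, a log2 fold change of -1.05. NGEF, the exchange factor ephexin that binds EPHA4, rose from 0.657 ± 0.091 to 1.63 ± 0.078 FPKM, a log2 fold change of 1.20. PTPN13, a phosphatase that binds ephrin-B tails, rose from 1.49 ± 0.13 to 3.72 ± 0.184 FPKM, a log2 fold change of 1.26. NGEF and FYN of this list had also been picked by the study on these libraries. FYN, a kinase that acts below ephrins, had 23.8 ± 0.422 FPKM in 231-BR cells against 12.5 ± 0.116 in MDA-MB-231 cells. PICK1, which binds the tails of Eph receptors and ephrin-B ligands, and KALRN had log2 fold changes of -2.57 and -1.65 at under 1 FPKM in both lines, and were chosen after their values were seen. FYN was chosen in the same way.

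The genes with the highest level in their class had smaller changes. RASA1 had a log2 fold change of -0.16, SDCBP, an adaptor that binds ephrin-B tails, had 0.14, and PTPN11 had 0.40. MMP14, a membrane protease that cuts EPHA2, had 97.9 ± 0.599 FPKM in 231-BR cells against 102 ± 3.29 in MDA-MB-231 cells and did not pass the test, with an adjusted p of 0.060. PTK2, a focal adhesion kinase, rose from 39.0 ± 1.12 to 59.1 ± 1.42 FPKM. ADAM10, which cuts ephrins from the cell surface and was also chosen after its values were seen, fell from 28.3 ± 0.639 to 24.9 ± 0.272 FPKM.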

How the data were processed

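Poly(A) RNA of 231-BR and MDA-MB-231 cells, 3 libraries of each, had been sequenced by the authors with paired reads. They filtered the reads with SOAPnuke and aligned them with HISAT2 2.0.4 to the genome and with Bowtie2 2.2.5 to a gene set, and the submitters' processing notes name GRCh38.p12 as the build. The deposited values are FPKM per gene and library, with no further normalization by the authors. The program that computed FPKM and the annotation release are not given in the sources used here. The 6 sample files held the same values as the matrix. As FPKM are not counts, the count test of the study was not run.

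The lines were compared in limma 3.58.1 (R 4.3.3; lmFit, eBayes with a trend) on log2(FPKM + 0.1) over the 13470 genes with a mean of at least 0.1 FPKM, and p-values were adjusted over all of them by the Benjamini-Hochberg method. The fit was tested on simulated data, in which 200 of 13339 genes were changed. Of these, 185 were recovered in the right direction, and 10 unchanged genes were called. The changed genes were drawn only from those with a positive mean on the log2 scale. They were also far fewer than the genes called in the data. The simulation thus does not cover low genes or a comparison in which most genes differ. Of 1238 genes with values over 0 and up to 0.3 FPKM throughout, 166 were equal in 231-BR replicates 1 and 2. This count cannot show whether low values rise in steps, and the size of a step would differ with transcript length. Depth was not recovered, and intervals that rest on it are left out. Gene positions and overlaps came from GENCODE release 29 (GRCh38), and gene order and promoter windows from RefSeq (GRCh38.p14), in which all 10 genes matched. Figures were drawn with Python 3.11.15 and matplotlib 3.10.9.

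The 10 genes and all lists were chosen with earlier results of these data known. Named were all Eph and ephrin genes, and of the partner genes those past an adjusted p of 0.05, an absolute log2 fold change of 1 and 1 FPKM in either line, with the highest expressed gene of each class and, by the smallest Euclidean distance over 6 libraries, the 3 genes nearest to the member with the largest increase and to that with the largest decrease. Alternatives were pseudocounts of 1 and 0.01, no filter, a filter at 1 FPKM, median-of-ratios scaling, quantile normalization, no trend, a replicate block, omission of each library in turn, the level in either line and a fold criterion of 1.5. Some partner genes are not reported here.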

Additional observations from a re-analysis of the deposited data

How the results depend on the processing

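The counts of genes called and the class shares kept within 1.5 times or within the SD in 122 of 124 values under the alternatives. The class shares were recomputed only with 1 library left out, not under the other alternatives. Leaving out 1 of 3 values always keeps the mean within the SD, so the class shares could not have failed this check. With a filter at a mean FPKM of 1, 1 in place of 6 of the other Eph and ephrin genes was higher, since fewer of them were tested, and with the level asked of either line 3 in place of 1 of the 10 genes met the criteria. Of 273 log2 fold changes of single genes, 271 kept their direction and their side of the threshold for the adjusted p. After quantile normalization EFNA4 was no longer called (0.03, adjusted p = 0.71) and EPHA10, not called in any fit, turned to -0.0093. The cause was not tested. Quantile normalization shifted the median over all genes, on the log2 scale, from 0.08 to -0.06 and the share of called genes that were higher from 57.4% to 45.7%, against 52.1% after median-of-ratios scaling. EPHA2 stayed lower in every alternative (-0.18 to -0.088). An absolute log2 fold change over 1 was not always kept. At a pseudocount of 1 it was lost by EFNA1 (-0.68), EFNA3 (0.81), EPHA3 (0.59), EPHB1 (0.51) and EPHA7 (0.32). PTPN13, NGEF and CHN1 lost it as well, as given above. EFNB1 (2.21), EPHA5 (1.33), EPHA4 (1.11) and LIMK1 (-1.55) kept it. Leaving out any 1 library changed no call of the 9 tested genes. Deviations of same-numbered libraries of the lines had correlations of 0.087, -0.040 and -0.11 over 11124 genes, against -0.15 to 0.18 for differently numbered libraries. With 3 libraries per line, these values cannot show whether the libraries were prepared in numbered pairs. With the replicate block 10505 genes were called in place of 10409, and 3 of the 10 genes were higher and 6 lower, as without it. Depth is unknown, so differences near 0.01 FPKM, the step of the deposited values, cannot be judged.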

Other observations

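Genes were ranked by the Euclidean distance of their log2(FPKM + 0.1) over the 6 libraries to the member with the largest increase and to that with the largest decrease. Nearest to EFNB1 were FOXQ1, a forkhead transcription factor, at a distance of 0.375, MITF, a transcription factor of the melanocyte lineage, at 0.402, and LYPD1 at 0.513. FOXQ1 had 15.3 ± 0.138 FPKM in 231-BR cells against 2.23 ± 0.208 in MDA-MB-231 cells, and MITF had 17.5 ± 0.943 and 2.65 ± 0.106 FPKM (SD, n = 3 each). Nearest to EFNA1 were LRRC34, at 0.348, GJB2, which encodes a gap junction protein, at 0.386, and SERPINA1, which encodes an antiprotease, at 0.391. GJB2 had 0.693 ± 0.152 FPKM in 231-BR cells against 1.75 ± 0.085 in MDA-MB-231 cells. With 6 libraries in 2 groups this likeness reflects a similar level and a similar difference between the lines.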
